A study of Mus musculus with 4 samples.

Results

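The subject is a set of 39 mouse genes, chosen by name, that encode the enzymes of glycolysis, of pyruvate use, of the pentose phosphate pathway and of glycogen storage. All 39 had values among the 12967 gene symbols in the deposited table, and all 39 were among the 10283 symbols with a mean of at least 5 CPM (reads scaled so that every library has the same total) that were compared. The values came from RNA immunoprecipitation followed by sequencing in 4T1, a mammary carcinoma line from BALB/c mice. The study concerned mRNA binding by the complex of PD-L1 with Caprin-1, a stress granule protein that binds RNA, when lipid metabolism is altered. All cells grew in puromycin and stably expressed an shRNA, either the control labelled SCR (shSCR) or one that targets CerS4 (shCerS4), a ceramide synthase of sphingolipid synthesis. RNA was precipitated from each cell line with an anti-Caprin-1 antibody or with IgG as the background control, which gave 4 groups of 1 library each. The labels do not say whether the stable cells were clones or pools, and 1 shRNA against CerS4 is named.

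Glycolysis splits glucose into pyruvate in the cytosol and yields a small amount of ATP, and lactate dehydrogenase then turns pyruvate into lactate. The pyruvate dehydrogenase complex instead commits pyruvate to mitochondrial oxidation, under the control of inhibitory kinases and activating phosphatases. The pentose phosphate pathway branches off at glucose 6-phosphate and supplies NADPH and ribose. Carcinoma cells, 4T1 among them, are known for high glycolytic rates even with oxygen present, and glycolytic enzyme mRNAs are classical targets of the transcription factors HIF-1 and MYC.

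With 1 library per group, no difference here has a replicate check, and no significance test was made. The estimated depth was between 19.7 and 27 M reads per library, and the 39 mRNAs had at least 137 estimated reads each in every library. Brackets give the 95% counting interval of a log2 ratio, which covers counting error between these libraries and nothing else. A gene was counted as higher or lower when it differed by at least 1.5-fold and its interval excluded 0. All 6 epithelial marker genes examined had values, with summed levels from 2822 to 7597 CPM, most of it Krt8 and Krt18. Of 4 fibroblast markers 3 had values, with summed levels from 20.8 to 65.7 CPM, most of it Pdgfra. Of 3 endothelial markers 1 had a value, Kdr, listed at 0.67 CPM in shSCR IgG and at 0 in the other libraries, and the 5 leukocyte markers and 4 liver-type isoenzymes had no value analysed here. Between shCerS4 and shSCR Caprin-1 precipitates the epithelial markers were divided, with Krt8 (−1.30) and Krt18 (−0.85) lower, Cdh1 (1.06) and Krt14 (0.77) higher and Epcam at 0.12. Cdh3 was too low to be compared, with 0 and 3 estimated reads in shSCR IgG and Caprin-1 and 24 and 40 in shCerS4. The part of these in the results was not tested. No value for Cers4 was analysed here, so the knockdown itself was not checked.

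The 39 mRNAs together took 1.26% of the reads in the shSCR IgG library, 1.85% in shSCR Caprin-1, 1.02% in shCerS4 IgG and 1.47% in shCerS4 Caprin-1. Both Caprin-1 libraries thus gave these mRNAs together a larger share than the IgG library of the same cells, and both shCerS4 libraries a smaller share than the shSCR library of the same precipitate. Abundant mRNAs weigh most in these sums, and Pkm alone gave 4221 of 12586 CPM in shSCR IgG. By gene, shCerS4 over shSCR log2 ratios were above 0 for 20 and below 0 for 19 with Caprin-1, and for 17 and 22 with IgG. Caprin-1 over IgG ratios were above 0 for 26 and below 0 for 13 in shSCR cells, and for 30 and 9 in shCerS4 cells. In bulk RNA, less RNA per cell and fewer cells expressing a gene cannot be told apart. The library with the most of a given mRNA differed by enzyme, as the plot of levels shows.

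**Figure D1:**
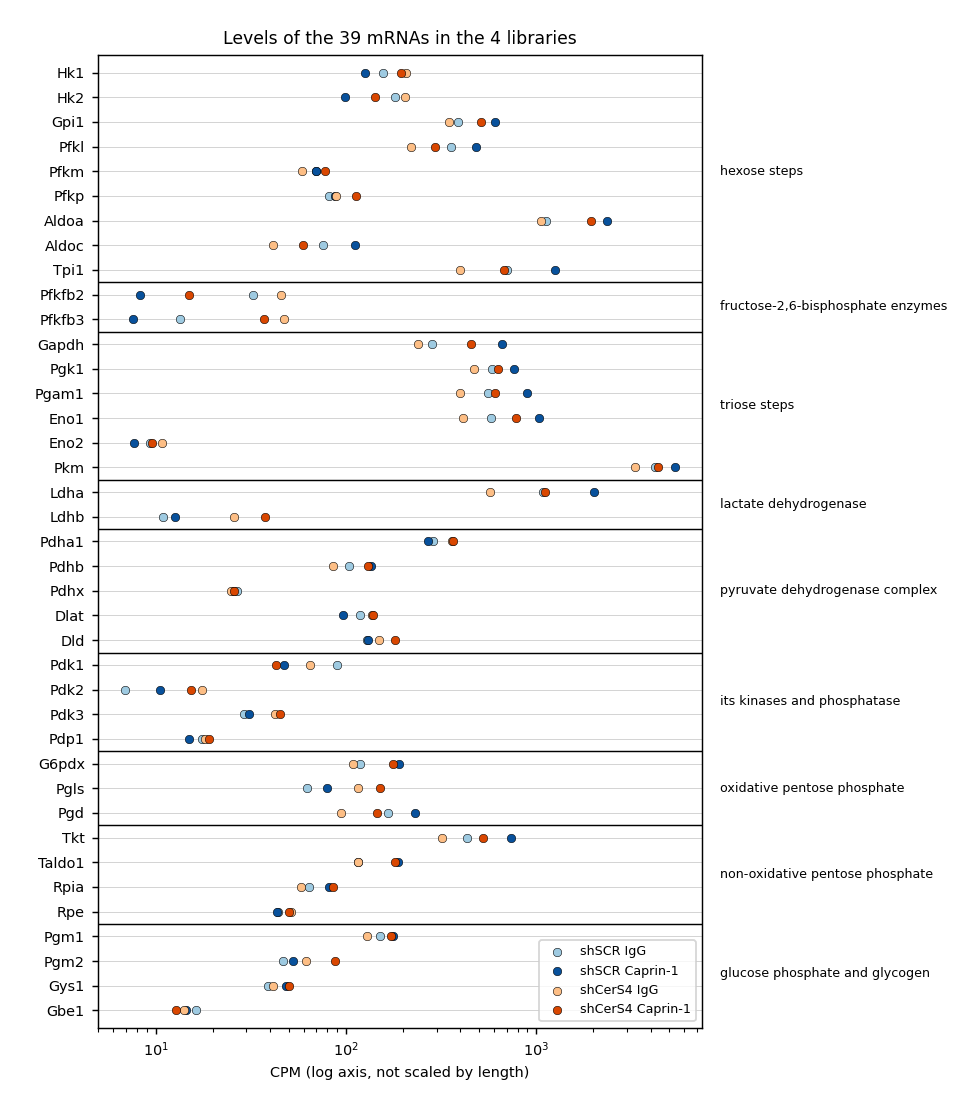
Levels of the 39 mRNAs in CPM (log axis, not scaled by transcript length, so genes are not to be compared with each other); each point is 1 library, coloured by group, and the rows are grouped by pathway step. Tpi1, which interconverts trioses, is drawn with the hexose steps. Aldoa, Tpi1, Gapdh, Eno1 and Ldha have their highest level in shSCR Caprin-1, whereas Pfkfb2 and Pfkfb3 have theirs in shCerS4 IgG.

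The question named first in the study design was how Caprin-1 precipitates differed between shCerS4 and shSCR cells. Past 1.5-fold, Pfkl, Aldoc, Tpi1, Ldha and Pgd were lower in shCerS4 cells, and Hk1, Pfkfb2, Pfkfb3, Ldhb, Pgls and Pgm2 were higher. Of the higher ones, the regulator gene Pfkfb3 and the second lactate dehydrogenase gene, Ldhb, stood past 2-fold. In all, 6 of the 39 mRNAs were higher (15.4%, against 19.2% of all genes compared) and 5 were lower (12.8%, against 10.9%), and 28 were neither. Both shares were near those of all genes. Past 2-fold, 2 of the 39 were higher (against 6.25% of all genes) and 0 lower (against 4.95%). The median log2 ratio of the 39 was 0.01, against 0.15 over all genes. Scaling by a trimmed mean of ratios instead of library totals moved all Caprin-1 ratios down by about the same amount, so that the median of all genes was 0.04, with 14.8% of them higher and 13.8% lower, and that of the 39 mRNAs was −0.09. The number lower then became 8, with Gapdh (−0.64), Pgam1 (−0.65) and Tkt (−0.59) added.

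Hexokinases, which trap glucose in the cell by phosphorylation, were on the higher side. Hk1 stood at 156 CPM in shSCR IgG, 126 in shSCR Caprin-1, 208 in shCerS4 IgG and 195 in shCerS4 Caprin-1. With Caprin-1 this was a log2 ratio of 0.62 [0.56, 0.69] that went under 1.5-fold, at 0.52, with trimmed-mean scaling. Hk2, the isoform induced in many tumours, had 99.0 and 142 CPM there, with a log2 ratio of 0.52 [0.45, 0.60], under the threshold.

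Phosphofructokinase carries out the committed step of glycolysis, and its 3 subunit genes differed. The liver-type gene Pfkl (chr10:77986947-78009807, build GRCm38) stood at 482 CPM in shSCR and 295 CPM in shCerS4 Caprin-1 precipitates, and at 357 and 219 CPM with IgG. Its log2 ratios were −0.71 [−0.75, −0.67] with Caprin-1 and −0.70 [−0.76, −0.65] with IgG. The platelet-type gene Pfkp had 0.35 [0.27, 0.43] with Caprin-1 and 0.12 [0.02, 0.21] with IgG. The difference between Pfkl and Pfkp was −1.06 [−1.15, −0.97] with Caprin-1. The muscle-type gene Pfkm had 0.15 [0.06, 0.24] with Caprin-1 and −0.25 [−0.36, −0.14] with IgG. Its reads were divided among 4 rows of the deposited table. The row with the highest mean held 70.8% of them in shSCR Caprin-1 and 41.7% in shCerS4 Caprin-1, and by that row alone the Caprin-1 ratio was −0.61. The direction for Pfkm therefore depends on how reads were assigned to its rows.

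The bifunctional enzymes that make and break down fructose 2,6-bisphosphate, an activator of phosphofructokinase, were both higher. Pfkfb3 (chr2:11471430-11554071) stood at 13.4 CPM in shSCR IgG, 7.59 in shSCR Caprin-1, 47.5 in shCerS4 IgG and 37.2 in shCerS4 Caprin-1. Both shCerS4 libraries lay above both shSCR libraries, with log2 ratios of 2.29 [2.07, 2.51] with Caprin-1 and 1.82 [1.62, 2.01] with IgG. These were the highest ratios of the 39 mRNAs in each precipitate, and in the Caprin-1 precipitates 99.4% of all genes had a lower ratio. The rows of the table for Pfkfb3 carry no transcript identity. One of the 6 held 25.5% of its reads in shSCR and 48.5% in shCerS4 Caprin-1 precipitates, and 17.4% and 55.2% with IgG. The row with the most reads in shSCR cells went from 3.40 CPM in shSCR to 4.75 CPM in shCerS4 with Caprin-1. With IgG it went from 6.76 to 9.08 CPM, so that this row alone stayed under 1.5-fold in both precipitates. The size of the ratio therefore depends on how reads were assigned to the rows. Pfkfb2 stood at 8.33 and 14.9 CPM with Caprin-1 and at 32.6 and 45.5 CPM with IgG, log2 ratios of 0.84 [0.60, 1.08] and 0.48 [0.34, 0.63].

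The aldolases cleave fructose 1,6-bisphosphate, and Tpi1 interconverts the products. Tpi1 (chr6:124810586-124814158) stood at 703 CPM in shSCR IgG, 1264 in shSCR Caprin-1, 398 in shCerS4 IgG and 677 in shCerS4 Caprin-1. It was 1.87-fold lower in shCerS4 cells with Caprin-1, a log2 ratio of −0.90 [−0.93, −0.87], and the ratio with IgG was −0.82 [−0.86, −0.78]. Aldoc (chr11:78323073-78327781) stood at 112 and 59.7 CPM with Caprin-1 and at 76.2 and 41.6 CPM with IgG. Its log2 ratio with Caprin-1, −0.91 [−1.0, −0.82], was the lowest of the 39, close to that of Tpi1. Aldoa, the main aldolase gene of most tissues, had −0.27 [−0.28, −0.25], and Gpi1, which makes fructose 6-phosphate, had −0.24 [−0.28, −0.21], both under the threshold.

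The steps from glyceraldehyde 3-phosphate to pyruvate, which make ATP and NADH, are encoded here by 6 genes, and none of them reached 1.5-fold under total scaling. In the Caprin-1 precipitates 5 of the 6 had ratios below 0 under each of the 5 scalings tried. These were Pgam1 at −0.55 [−0.58, −0.52], Gapdh at −0.53 [−0.57, −0.50], Eno1 at −0.40 [−0.43, −0.38], Pkm at −0.30 [−0.31, −0.28] and Pgk1 at −0.28 [−0.31, −0.25]. Pkm, the pyruvate kinase gene, took the most reads of the 39, with 4221 CPM in shSCR IgG, 5337 in shSCR Caprin-1, 3311 in shCerS4 IgG and 4349 in shCerS4 Caprin-1. One of its 9 rows held between 76.9% and 79.8% of them in each library. The neuronal enolase gene Eno2, at under 11 CPM in every library, was the exception at 0.32 [0.05, 0.59]. Several of these genes have processed pseudogenes in the mouse genome, and reads can be divided among the copies. Eno1 stood at 578, 1041, 412 and 786 CPM in the same order of libraries, and Eno1b, a near-identical copy, was listed at 1925, 3473, 1377 and 2614 CPM. The sum of both, chosen after the values were seen, gave a log2 ratio of −0.41 with Caprin-1.

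Lactate dehydrogenase is a tetramer of LDHA and LDHB subunits, the first abundant in tissues that release lactate and the second in tissues that oxidise it, and the 2 genes went in opposite directions. Ldha (chr7:46842274-46855627) stood at 1089 CPM in shSCR IgG, 2006 in shSCR Caprin-1, 570 in shCerS4 IgG and 1118 in shCerS4 Caprin-1. It was lower in shCerS4 cells by 1.79-fold with Caprin-1 and 1.91-fold with IgG, log2 ratios of −0.84 [−0.86, −0.82] and −0.93 [−0.97, −0.90]. Ldhb (chr6:142490249-142507957) stood at 11.0, 12.7, 25.8 and 37.4 CPM in the same order. Both shCerS4 libraries were above both shSCR libraries, with log2 ratios of 1.56 [1.38, 1.74] and 1.23 [1.00, 1.46]. The change of Ldha relative to Ldhb was −2.41 [−2.59, −2.23] with Caprin-1 and −2.16 [−2.40, −1.93] with IgG, about 5.3-fold and 4.48-fold.

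Both lactate dehydrogenase genes are set here beside the regulator gene with the highest ratio and a short glycolytic gene that was lower. For Ldha, Ldhb, Pfkfb3 and Tpi1 the 250 bases before the first listed start are given, 5′ to 3′ on the strand of the gene. They come from the RefSeq promoter table of build GRCm38.p6. Capitals mark ACGTG or GCGTG on either strand, the core that HIF-1 recognises. Overlapping matches are joined, and CACGTG, the site known for MYC and MAX, contains it. The Ldha stretch (chr7:46845554-46845803, plus strand) is the first of 2 in the table and holds 2 marked stretches with CACGTG and 1 with CACGT. It lies inside the span given above for Ldha, so it does not precede the outermost start of that gene. The Pfkfb3 stretch (chr2:11553930-11554179, minus strand) is also the first of 2 and overlaps the span given for Pfkfb3. Those of Ldhb (chr6:142507958-142508207) and Tpi1 (chr6:124814159-124814408), both on the minus strand, are the only ones.
Ldha: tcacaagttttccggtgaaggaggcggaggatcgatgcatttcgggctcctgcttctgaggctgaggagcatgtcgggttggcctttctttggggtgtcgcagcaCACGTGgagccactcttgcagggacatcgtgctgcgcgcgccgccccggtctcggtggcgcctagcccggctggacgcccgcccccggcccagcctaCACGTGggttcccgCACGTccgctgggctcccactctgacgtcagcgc
Ldhb: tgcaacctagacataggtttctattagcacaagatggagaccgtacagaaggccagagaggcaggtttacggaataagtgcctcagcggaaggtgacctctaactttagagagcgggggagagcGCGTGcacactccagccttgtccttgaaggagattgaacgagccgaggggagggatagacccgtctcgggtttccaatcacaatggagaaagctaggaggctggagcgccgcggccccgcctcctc
Pfkfb3: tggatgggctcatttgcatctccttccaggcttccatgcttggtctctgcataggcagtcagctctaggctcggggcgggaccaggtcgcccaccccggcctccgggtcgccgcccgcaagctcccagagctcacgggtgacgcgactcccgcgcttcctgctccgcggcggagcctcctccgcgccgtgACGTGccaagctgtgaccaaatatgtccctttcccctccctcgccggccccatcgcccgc
Tpi1: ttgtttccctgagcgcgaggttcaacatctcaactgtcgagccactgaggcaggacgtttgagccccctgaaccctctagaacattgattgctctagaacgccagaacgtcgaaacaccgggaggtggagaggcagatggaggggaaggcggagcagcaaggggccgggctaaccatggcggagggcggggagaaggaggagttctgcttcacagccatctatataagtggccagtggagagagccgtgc
Ldha, lower in shCerS4 cells, has 3 marked stretches, while Ldhb and Pfkfb3, both higher, have 1 each and Tpi1, lower, has 0. Promoters were found for 38 of the 39 genes, and the first one listed held the core in 27 of 38 (71.1%), in 4 of the 5 genes lower in Caprin-1 precipitates and in 5 of the 6 higher. Among all 27025 genes of the table it was in 38.6%, and among the 8292 compared genes with a promoter in 60.0%. A match of letters is no evidence of binding.

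The pyruvate dehydrogenase complex had no subunit gene past 1.5-fold in the shCerS4 over shSCR comparison of either precipitate. The genes of its catalytic subunits Pdha1, Dlat and Dld had Caprin-1 log2 ratios of 0.45 [0.41, 0.50], 0.53 [0.46, 0.60] and 0.46 [0.40, 0.53], above the median of all genes. Pdhb, which encodes the partner of PDHA1, had −0.06 [−0.12, 0.01], and Pdhx, which anchors DLD to the core, had 0.01 [−0.14, 0.17], a sign that depended on scaling. Pdha1, the subunit phosphorylated by the kinases, stood at 287 and 269 CPM with IgG and Caprin-1 in shSCR cells and at 361 and 367 CPM in shCerS4 cells.

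Of the kinases that switch the complex off, Pdk1, a classical HIF-1 target, stood at 47.2 and 43.1 CPM with Caprin-1 and at 89.8 and 64.8 CPM with IgG, log2 ratios of −0.13 [−0.25, −0.01] and −0.47 [−0.58, −0.37]. Pdk3 had 0.54 in both precipitates, just under the threshold. Pdk2 stood at 6.91 and 10.6 CPM with IgG and Caprin-1 in shSCR cells and at 17.5 and 15.4 CPM in shCerS4 cells. Its ratio was 0.55 [0.32, 0.77] with Caprin-1 and 1.34 [1.05, 1.62] with IgG, so both shCerS4 libraries exceeded both shSCR libraries. The phosphatase gene Pdp1 had 0.35 [0.16, 0.54] with Caprin-1.

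In the oxidative branch of the pentose phosphate pathway 2 consecutive steps differed in direction. Pgls, the lactonase gene, stood at 62.5 CPM in shSCR IgG, 79.2 in shSCR Caprin-1, 116 in shCerS4 IgG and 151 in shCerS4 Caprin-1, log2 ratios of 0.93 [0.85, 1.01] with Caprin-1 and 0.89 [0.79, 0.99] with IgG. Pgd (chr4:149149991-149166705), which encodes the NADPH-producing phosphogluconate dehydrogenase that follows, stood at 166, 230, 94.6 and 146 CPM in the same order. Its log2 ratios were −0.65 [−0.71, −0.59] and −0.81 [−0.89, −0.72], and by the more abundant of its 2 rows alone the IgG ratio was −0.35. G6pdx, the gene of the rate-limiting first enzyme, had −0.11 [−0.16, −0.05] with Caprin-1. In the non-oxidative branch, which exchanges carbon with glycolysis, no gene passed. Tkt, the transketolase gene, stood at 432 and 738 CPM with IgG and Caprin-1 in shSCR cells and at 320 and 526 CPM in shCerS4 cells, and had −0.49 [−0.52, −0.46] with Caprin-1. Taldo1, the transaldolase gene, had −0.06, and the pentose phosphate isomerase and epimerase genes Rpia and Rpe had 0.06, a sign that depended on scaling, and 0.21.

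Among genes of glucose phosphate and glycogen, Pgm2 stood at 46.6 and 52.8 CPM with IgG and Caprin-1 in shSCR cells and at 61.7 and 87.6 CPM in shCerS4 cells. Its log2 ratio was 0.73 [0.63, 0.83] with Caprin-1 and 0.40 [0.28, 0.53] with IgG. Pgm1, which links glucose 1-phosphate with glucose 6-phosphate, stood at 176 and 172 CPM with Caprin-1 and at 150 and 129 CPM with IgG. The symbols Pgm1 and Pgm2 have each been used for the other mouse gene, so these values follow the symbols of the deposited table. Gys1, the muscle-type glycogen synthase gene, had 0.06 [−0.05, 0.17], also with a sign that depended on scaling, and the branching enzyme gene Gbe1 had −0.17 [−0.39, 0.04].

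The IgG precipitates, which hold RNA recovered without the antibody against Caprin-1, were compared in the same way. There 4 of the 39 were higher (10.3%, against 17.3% of all genes) and 5 lower (12.8%, against 11.7%). Under trimmed-mean scaling 4 of the 39 were higher and 7 lower, with Pgam1 (−0.59) and Eno1 (−0.59) added. Of all genes 13.2% were then higher and 14.6% lower. Past 2-fold under total scaling, Pfkfb3, Ldhb and Pdk2 were higher (against 5.69% of all genes) and none was lower (against 5.34%). The 2 comparisons share no library. In either direction, 11 of the 39 were counted with Caprin-1 (28.2%, against 30.1% of all genes) and 9 with IgG (23.1%, against 29%), and 8 were counted in both with the same direction, which is 72.7% of the first list and 88.9% of the second. Over all compared genes the same shares were 68.5% and 71.1%. These were Pfkfb3, Ldhb and Pgls on the higher side and Pfkl, Aldoc, Tpi1, Ldha and Pgd on the lower side. Signs matched for 36 of the 39 (92.3%, against 82.8% of all genes), as the plot of the 2 ratios shows. Pearson's r over the 39 genes, which are not independent replicates, was 0.94, and over all genes it was 0.89.

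**Figure D2:**
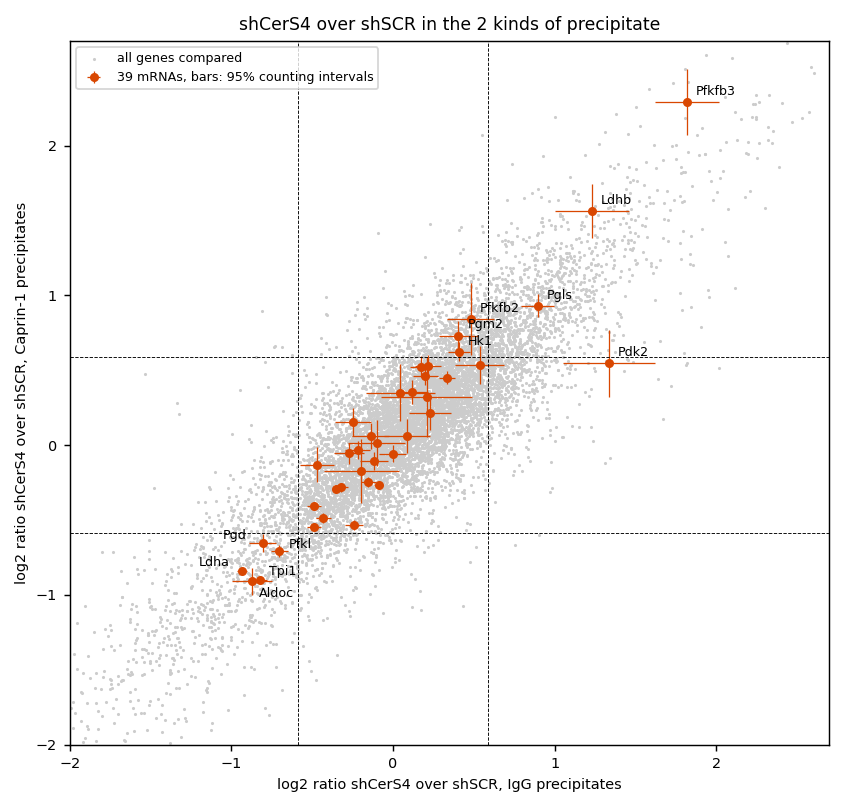
Log2 ratios of shCerS4 over shSCR in IgG (x axis) and Caprin-1 (y axis) precipitates, with the 39 mRNAs in orange, their 95% counting intervals as bars, all compared genes in grey and dashed lines at 1.5-fold; 162 genes lie outside the axes. Pfkfb3 and Ldhb lie at the upper right and Ldha, Tpi1, Aldoc, Pfkl and Pgd at the lower left in both precipitates.

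Caprin-1 was then compared with IgG within each cell line, to see which of these mRNAs held a larger share with Caprin-1. The ratios are relative to each library's total and carry no information on the amount of RNA recovered. Past 1.5-fold in both cell lines, 9 of the 39 mRNAs held larger shares with Caprin-1, against 620 of the 10283 genes compared. These were Aldoa, Tpi1, Gapdh, Pgam1, Eno1, Ldha, G6pdx, Tkt and Taldo1. The mRNAs of the regulators Pfkfb2 and Pdk1 held smaller shares past 1.5-fold in both lines, against 1983 of the 10283 genes. In shSCR cells 11 of the 39 were higher with Caprin-1 (28.2%, against 11.4% of all genes) and 4 lower (10.3%, against 27.5%). In shCerS4 cells 11 were higher (28.2%, against 8.69%) and 2 lower (5.13%, against 22.6%). The medians of the 39 were 0.31 and 0.40, against −0.13 and −0.11 over all genes. Trimmed-mean scaling moved these to 0.48 and 0.55 against 0.03 and 0.05, and the background to 18.4% higher and 21.2% lower in shSCR and 15.1% and 15.9% in shCerS4 cells. With that scaling 14 of the 39 passed on the higher side and 4 on the lower side in shSCR cells, while 16 passed on the higher side and 1 on the lower side in shCerS4 cells.

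The highest ratio in shSCR cells was that of Gapdh (chr6:125161852-125166467), which stood at 283 CPM with IgG and 658 CPM with Caprin-1, a log2 ratio of 1.22 [1.18, 1.26]. In shCerS4 cells it stood at 239 and 455 CPM, a ratio of 0.93 [0.88, 0.98]. Aldoa stood at 1128 and 2348 CPM in shSCR and at 1061 and 1952 CPM in shCerS4 cells, log2 ratios of 1.06 [1.04, 1.08] and 0.88 [0.86, 0.90]. Ldha had 0.88 [0.86, 0.90] and 0.97 [0.94, 1.00], and was the highest of the 39 in shCerS4 cells. Eno1 had 0.85 and 0.93, Tpi1 0.85 and 0.77, Tkt 0.77 and 0.72, Taldo1 0.70 and 0.65, Pgam1 0.68 and 0.63, and G6pdx 0.68 and 0.69. These 9 were higher past 1.5-fold in both cell lines. Another 4 genes passed in 1 line and not in the other, with shSCR and shCerS4 values of 0.65 and 0.56 for Gpi1, 0.47 and 0.62 for Pgd, 0.40 and 0.62 for Pdhb and 0.61 and −0.18 for Pdk2. Of these only Pdk2 differed between the lines by 1.5-fold, and under trimmed-mean scaling Gpi1 and Pgd passed in both. By the more abundant of its 2 rows alone, Pgd had 68.2 CPM with IgG and 85.6 with Caprin-1 in shCerS4 cells, under 1.5-fold. In shSCR cells that row had 86.9 and 139 CPM, past 1.5-fold. Pkm had 0.34 [0.33, 0.35] and 0.39 [0.38, 0.41], and Pgk1 0.38 and 0.42, under the threshold.

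At the other end, Pfkfb2 (chr1:130689043-130729253) stood at 32.6 CPM with IgG and 8.33 CPM with Caprin-1 in shSCR cells, and at 45.5 and 14.9 CPM in shCerS4 cells. Its log2 ratios of −1.97 [−2.18, −1.75] and −1.61 [−1.78, −1.43] were the only ones of the 39 lower past 2-fold, against 13% and 8.02% of all genes, and 0.768% and 1.06% of all genes had a lower one. On the higher side Gapdh and Aldoa passed 2-fold in shSCR cells (against 1.69% of all genes) and none did in shCerS4 cells (against 0.934%). Pdk1 had −0.93 [−1.03, −0.83] and −0.59 [−0.71, −0.47], the second of which went under 1.5-fold with trimmed-mean scaling. Hk2 stood at 181 and 99.0 CPM in shSCR and at 204 and 142 CPM in shCerS4 cells, log2 ratios of −0.87 [−0.94, −0.79] and −0.51 [−0.58, −0.45]. Pfkfb3 had −0.82 [−1.08, −0.56] and −0.35 [−0.48, −0.22], and the first depends on its rows. In shSCR cells its row with the highest mean had 2.34 CPM with IgG and 1.93 with Caprin-1, under 1.5-fold. The row with the most reads in those cells had 6.76 and 3.40 CPM. Of the 5 pyruvate dehydrogenase subunit genes, Pdhb had the highest ratios, 0.40 [0.32, 0.48] and 0.62 [0.53, 0.70], and Dlat the lowest in shSCR cells, −0.30 [−0.38, −0.22].

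**Figure D3:**
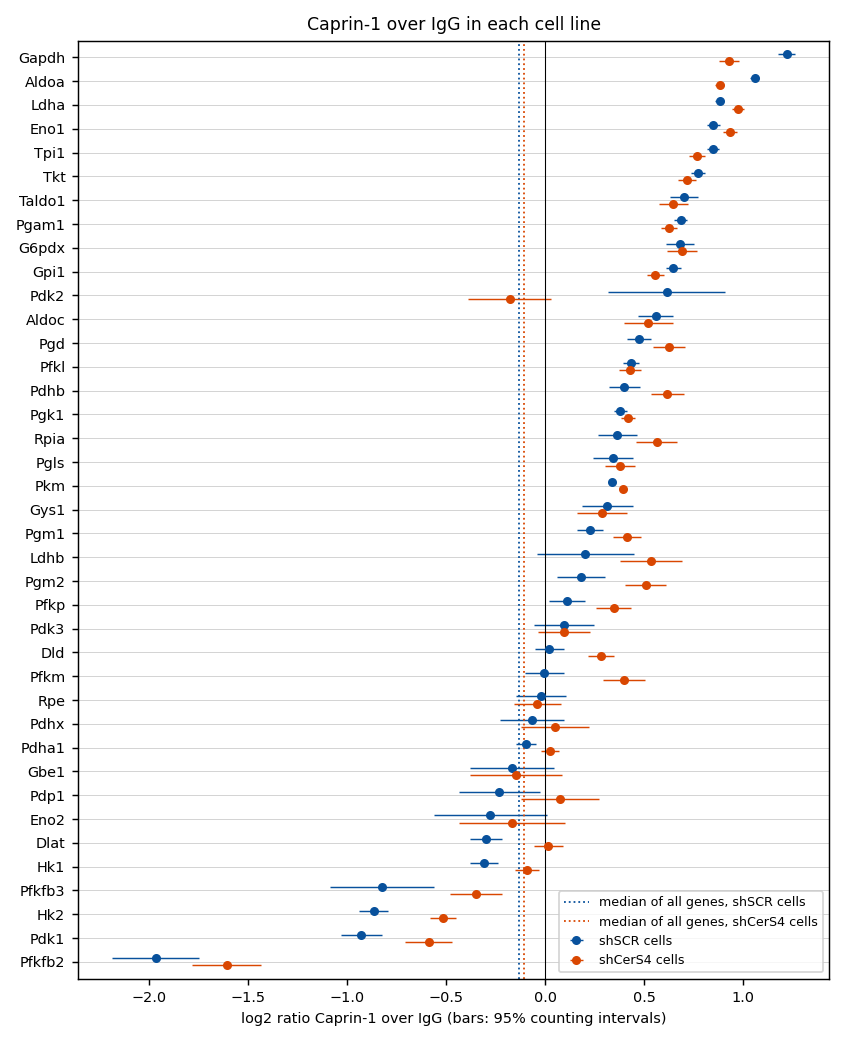
Log2 ratio of Caprin-1 over IgG for the 39 mRNAs in shSCR (blue) and shCerS4 (orange) cells, ordered by the shSCR value, with 95% counting intervals as bars and dotted lines at the median of all compared genes. Gapdh, Aldoa and Ldha are at the top and Hk2, Pdk1 and Pfkfb2 at the bottom.

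The 2 ends of this order differed in gene size. Over the 39 genes the Spearman correlation of the ratio with genomic span was −0.61 in shSCR and −0.52 in shCerS4 cells, and over 10277 compared genes with a known span it was −0.54 and −0.48. These are correlations across genes within the same libraries, given as a description. Tpi1, Gapdh and Aldoa span 3.57, 4.62 and 5.76 kb, and Hk2, Pfkfb2 and Pfkfb3 span 49.4, 40.2 and 82.6 kb. In classes of span set after the values were seen, 9 of the 39 genes were under 10 kb. Their median Caprin-1 over IgG ratio was 0.56 in shSCR cells, against 0.31 for all genes of that size. There 7 of the 9 were above 0, while Eno2 (9.62 kb) had −0.28 and Pdp1 (8.27 kb) −0.23. For the 18 genes from 10 to 30 kb the medians were 0.41 and −0.03, and for the 12 genes over 30 kb they were −0.12 and −0.55. The part of span in the ratios was not tested.

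**Figure D4:**
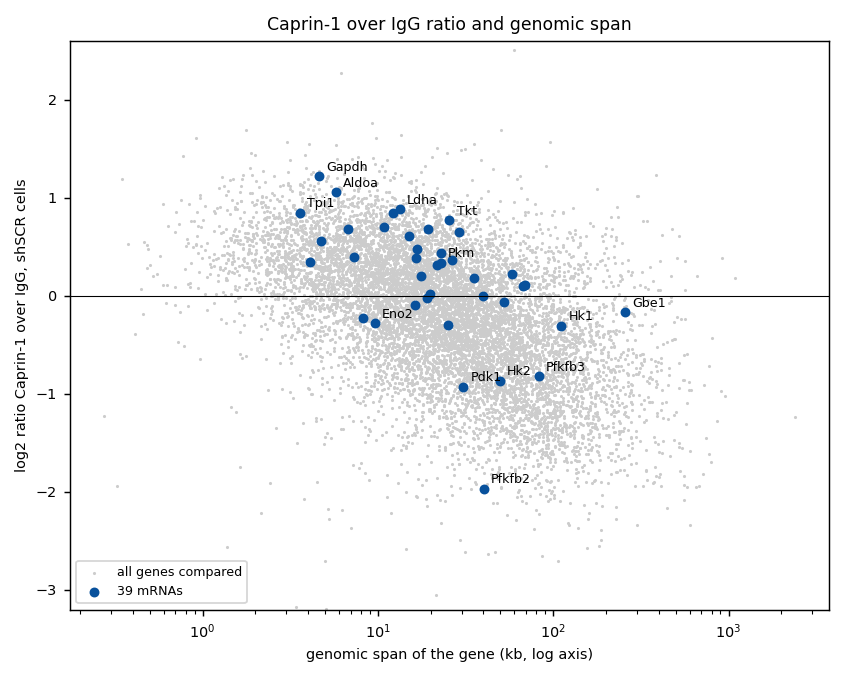
Log2 ratio of Caprin-1 over IgG in shSCR cells against genomic span in kb (log axis), with the 39 genes in blue and all compared genes in grey; 3 genes lie outside the vertical axis. Gapdh, Aldoa and Tpi1 are short and high, Hk2, Pfkfb2 and Pfkfb3 long and low, and Gbe1, the longest of the 39, lies at −0.17, a sign that depended on scaling.

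Finally, the ratio of Caprin-1 to IgG in shCerS4 cells was set against that in shSCR cells. None of the 39 was higher past 1.5-fold (against 4.24% of all genes) and 1 was lower, Pdk2 (against 2.62%). Past 2-fold the counts were 0 and 0, against 0.632% and 0.35% of all genes. The difference for Pdk2 was −0.79 [−1.15, −0.43], from 0.61 [0.32, 0.91] in shSCR to −0.18 [−0.39, 0.03] in shCerS4 cells, and it rests on 137 estimated reads in the shSCR IgG library. The other 38 lay between −0.29 (Gapdh) and 0.47 (Pfkfb3), and the median was 0.09, against 0.04 over all genes. For the 5 subunit genes of pyruvate dehydrogenase the difference lay between 0.12 and 0.32, under the threshold, and the interval of Pdhx [−0.12, 0.35] included 0. Over all genes 56.0% had a difference above 0. The difference was −0.08 for Tpi1 and 0.09 for Ldha, which are 1.06-fold and 1.07-fold. Because this difference is built from the same 4 libraries as the ratios above, it is not separate evidence.

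Genes linked to these enzymes were examined as lists. Of 10 transporters of glucose, lactate and pyruvate, 6 were compared, and 1 was higher (16.7%, against 19.2% of all genes) and 0 lower (against 10.9%) in shCerS4 Caprin-1 precipitates. That was Mpc1, a subunit of the mitochondrial pyruvate carrier, at 0.87 [0.58, 1.15], with 0.20 [−0.14, 0.53] for IgG. Its partner Mpc2 had 0.39 [0.23, 0.55] with Caprin-1 and 1.02 [0.81, 1.24] with IgG. Bsg, the chaperone of the lactate transporters, had −0.01 [−0.04, 0.02] with Caprin-1, and its Caprin-1 over IgG ratios were 0.79 and 0.74.

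Of 41 other enzymes of sugar phosphate, pyruvate and glycogen metabolism, 25 were compared, and 9 were higher (36%, against 19.2% of all genes) and 3 lower (12%, against 10.9%) with Caprin-1. Their median was 0.34, against 0.15 over all genes. Gyg, which encodes the glycogen primer glycogenin, stood at 39.2 CPM in shSCR and 88.9 CPM in shCerS4 Caprin-1 precipitates, a log2 ratio of 1.18 [1.07, 1.29], and had 1.19 with IgG. Pmm1, a phosphomannomutase gene, had 1.14 and 1.13, and Shpk, a sedoheptulose kinase gene, 1.04 and 0.64. Eno3, the muscle-type enolase gene, took the most reads of this list and had 0.15 [0.11, 0.19] with Caprin-1.

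All 18 citric acid cycle genes were compared, and 1 was higher (5.56%, against 19.2% of all genes) and 1 lower (5.56%, against 10.9%), with a median of 0.02 against 0.15. Cs, which encodes citrate synthase, stood at 247 and 409 CPM with Caprin-1, a log2 ratio of 0.72 [0.68, 0.77], and Sdhc, a succinate dehydrogenase subunit gene, at −0.63 [−0.68, −0.58]. Idh3a had 0.56 and Fh1 −0.58, both under the threshold. In the Caprin-1 over IgG comparison the median of these 18 was 0.54 in shSCR and 0.55 in shCerS4 cells, above the medians of the 39. There 6 and 8 genes were higher (33.3% and 44.4%, against 11.4% and 8.69% of all genes) and 0 lower (against 27.5% and 22.6%). Mdh2, the mitochondrial malate dehydrogenase gene, had the highest value there, 1.18 and 0.96.

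Of 23 HIF factors and targets outside glycolysis, 21 were compared, and 5 were higher (23.8%, against 19.2% of all genes) and 2 lower (9.52%, against 10.9%) with Caprin-1, with a median of 0.13 against 0.15. Hif1a itself stood at 184 CPM in shSCR and 310 CPM in shCerS4 Caprin-1 precipitates, a log2 ratio of 0.75 [0.70, 0.80], and had 0.46 with IgG. Egln1, which encodes the prolyl hydroxylase that marks HIF-1α for destruction, had 0.85 and 0.78, Ndrg1 0.67 and 0.53, and P4ha2, a collagen prolyl hydroxylase gene, −0.81 and −1.33. Adm, which encodes adrenomedullin, had 2 estimated reads in shSCR and 339 in shCerS4 Caprin-1 precipitates and 8 and 243 with IgG, log2 ratios of 7.22 [5.42, 9.01] and 4.85 [3.87, 5.84], and it passed the filter on low values through the shCerS4 libraries alone. In Caprin-1 over IgG this list had medians of −0.46 and −0.25, against −0.13 and −0.11 over all genes. There 8 and 6 genes were lower (38.1% and 28.6%, against 27.5% and 22.6% of all genes), Adm among the 8 with 8 against 2 estimated reads, and 0 were higher (against 11.4% and 8.69%).

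Of 10 genes for glucose sensing, NRF2 and MYC factors, 9 were compared, and 1 was higher (11.1%, against 19.2% of all genes) and 2 lower (22.2%, against 10.9%) with Caprin-1, with a median of −0.19 against 0.15. Myc was the higher one at 0.67 [0.62, 0.72]. Txnip, which encodes an inhibitor of glucose uptake whose mRNA follows glucose supply, stood at 493 and 329 CPM with Caprin-1 and at 518 and 297 CPM with IgG, log2 ratios of −0.58 [−0.62, −0.54] and −0.80 [−0.85, −0.76]. Its relative Arrdc4 had −1.09 [−1.32, −0.85] and −0.83 [−1.08, −0.58], and Mlx, which encodes the shared partner of the glucose-sensing factors that induce both, had −0.70 [−0.85, −0.54] and −0.58 [−0.74, −0.41].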

How the data were processed

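The deposited table, although named as counts, held CPM values by the authors for 24393 rows in 12967 gene symbols, each column having the same total apart from 0.0001 added to every row. The build mm10 and the tools STAR and Partek are named in the submitters' processing notes; versions, strand, annotation and counting are not given in the sources used here. The 0.0001 was subtracted and rows were summed per symbol, 19 of the 39 genes having several rows. The CPM worth of 1 read came from the spacing of low values, and 79.8% to 81.3% of gene values under 40 CPM lay within 0.05 of a whole read. Log2 ratios used library totals with 0.5 reads added, and intervals used 1/reads as the variance of the natural log. These are reads after amplification, not molecules. The background is the 10283 genes whose mean over the libraries reached 5 CPM. Symbols were matched to RefSeq genes of GRCm38.p6, the patch release of mm10, for all 39.

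The named genes are all 39, with values in 4 libraries for those counted in the main comparison or in the difference, for the 3 highest and 3 lowest of each Caprin-1 over IgG comparison and for the one with the most reads in each group. Of other lists they are the gene with the most reads and up to 4 with the largest ratio; 1 such gene is not reported here. Members, lists and the 1.5-fold rule were chosen with earlier results of these data known; the relative changes between isoenzymes, the span classes, the promoter motif and the sum of Eno1 with Eno1b were chosen after the values were seen. The script was tested on simulated data. Alternatives changed the scaling (trimmed mean, upper quartile, median of ratios, or totals without the 39), the filter (none, 1 or 20 CPM), the added reads (5), the rows used (the most abundant per gene) and the rule (2-fold). Python 3.11.15, numpy 2.4.6 and pandas 2.3.3 were used.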

Additional observations from a re-analysis of the deposited data

Results flagged for a closer look

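With 1 library per group, no group could be searched for outlying samples. One of the 39 mRNAs, Pfkm, had opposite directions of the same contrast under total scaling, with both counting intervals excluding 0. Its shCerS4 over shSCR log2 ratios were 0.15 and -0.25 in Caprin-1 and IgG precipitates. Their difference was 0.40 [0.26, 0.55], under the threshold, and had no significance test. Under trimmed-mean and median-of-ratios scaling the Caprin-1 ratio was 0.05 and 0.02, and its interval then included 0. By the row with the highest mean alone the Caprin-1 ratio was below 0, as given above. The values in the 4 libraries were 69.9 CPM in shSCR IgG, 69.7 in shSCR Caprin-1, 58.9 in shCerS4 IgG and 77.5 in shCerS4 Caprin-1, and its 4 rows took different shares of the reads in each.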

How the results depend on the processing

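No count or median for the 39 mRNAs moved with a filter of 1 CPM, no filter or 5 added reads, and no mRNA that was counted as higher or lower changed sign under any alternative tried. In shCerS4 over shSCR with Caprin-1 the median of 0.01 became −0.09 under trimmed-mean, −0.09 under upper-quartile and −0.11 under median-of-ratios scaling, and the 5 lower mRNAs became 8 under each. With IgG the median of −0.10 became −0.20 under trimmed-mean and median-of-ratios scaling, and the 5 lower mRNAs became 7 and 6. The Caprin-1 over IgG median of 0.31 in shSCR cells became 0.48, 0.49 and 0.49 in that order, and that of 0.40 in shCerS4 cells 0.55, 0.54 and 0.54. The 2 lower mRNAs in shCerS4 cells became 1 under each of these scalings, with totals without the 39 and with the most abundant row per gene, in each case because Pdk1 (−0.43 to −0.58) went under 1.5-fold. For the difference of the ratios, the 1 lower mRNA became 0 with a filter of 20 CPM, which removes Pdk2, and 2 with the most abundant row, which adds Pfkm at −1.07. A 2-fold rule left 2 higher and 0 lower with Caprin-1, 3 higher and 0 lower with IgG, 2 higher and 1 lower for Caprin-1 over IgG in shSCR cells, 0 higher and 1 lower in shCerS4 cells and 0 lower for the difference. No paired analysis was possible because each group has 1 library and the labels give no replicate numbers.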
